A study of Homo sapiens with 15 samples.

Results

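The expression of 10 genes of the human pluripotency network was followed across all 15 libraries of the series. POU5F1, NANOG, ZFP42, TDGF1, PRDM14, UTF1, DPPA2, DPPA4, L1TD1 and VRTN were taken from a fixed list of symbols, and all 10 were among the 17999 genes of the deposited table. Messenger RNA was sequenced from wild-type cultures of H1 and HUES9, 2 established human embryonic stem cell (ESC) lines, and of self-renewing neuromesodermal progenitors (srNMPs) made from them, a cell that makes both neurons of the spinal cord and muscle of the trunk. Levels are in FPKM, fragments per length of transcript scaled to the mapped fragments of a library, and changes are differences of log2(FPKM + 1) ± standard error.

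The libraries fell into 9 groups. Uninduced HUES9 ESCs formed a group of 1 library. The srNMPs were sampled at passage 8 and passage 25. Neuronal progenitors came from inductions of 7 days labelled RABC and RASS, names that the labels do not spell out, and neurons were labelled dorsal or ventral. Each of these 6 groups held 1 library labelled H1 (replicate 1) and 1 labelled HUES9 (replicate 2), and all 12 carry the treatment label neural induction, srNMPs included. Skeletal muscle was induced from HUES9 alone and sampled at day 40 and at day 50, with 1 library each. The ESC, day 40 and day 50 groups therefore have no replicates. The labels do not say whether the cultures of a state were grown independently, so p-values measure only the spread between these libraries.

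Relative depth, as estimated from the values, ran from 0.954 to 1.05 with the mean library at 1, and each library had 10785 to 12102 genes at 1 FPKM or more. The HUES9 minus H1 difference of the RASS group, correlated across genes with that of the other 5 groups, gave Pearson's r from -0.533 to -0.167, whereas the 10 pairs of other groups gave 0.0691 to 0.377. These are correlations across genes, which are no replicates. The RASS libraries thus go against their cell line labels, and results were also computed with their lines exchanged and without them. Summed over 8 neuron genes, the level was 1409 to 1798 FPKM in neurons, and over 9 muscle genes it was 3013 to 4661 in muscle against 0.881 to 13.1 elsewhere. Summed over 10 neuromesodermal genes it was 179 to 576 in srNMPs against 69.7 in the ESC library, a sum carried mainly by the growth factor genes FGF8 and FGF17, while WNT3A was listed at 0 in all 4 srNMP libraries. A pair of srNMP libraries stood apart. In H1 at passage 8, CDX4 and NKX1-2 were listed at 0 and CDX2 was near it (0.00615 FPKM), whereas the trunk gene TBXT had 2.11, within the range of the other 3 libraries (1.87 to 13.4). NKX1-2 was itself at 49.6 in ESCs. HUES9 at passage 25 had higher neural genes than the other 3 srNMP libraries, with PAX6 at 24.5 (0.161 to 0.324 in the others), STMN2 at 72.0 (2.47 to 13.3) and HES5 at 51.3 (2.52 to 11.5). Calls of L1TD1 that changed when 1 of these libraries was left out are given both ways. Correlations of levels across libraries were computed only with them included.

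Pluripotent cells keep an open developmental potential through a small set of transcription factors that activate each other and repress lineage genes. In human ESCs this set is sustained by NODAL, activin and FGF signalling, and it is shut down as cells commit to a germ layer. POU5F1 (OCT4) and NANOG are its core factors, and POU5F1 binds DNA together with SOX2 at paired sites. PRDM14, ZFP42 (REX1) and UTF1 are nuclear factors of the network. DPPA2 and DPPA4 are related chromatin proteins that act as partners. TDGF1 (CRIPTO) is a membrane-bound co-receptor of NODAL, L1TD1 is an RNA-binding protein derived from a LINE-1 element, and VRTN (vertnin) is a nuclear protein linked to vertebral number in animals.

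Proximal promoters show how differently the genes are built at their start sites. RefSeq windows (GRCh38.p14, 250 bases before to 50 after the start) were found for 8 of the 10 genes, with 9 windows since TDGF1 has 2. Those of NANOG (chr12:7789152-7789451, plus strand), DPPA4 (chr3:109337497-109337796, minus strand) and L1TD1 (chr1:62194599-62194898, plus strand) are shown, because NANOG was shut in all derived cells whereas DPPA4 and L1TD1 were the genes still expressed. Capitals mark a paired SOX and OCT site in NANOG and a GC box in the others.
NANOG: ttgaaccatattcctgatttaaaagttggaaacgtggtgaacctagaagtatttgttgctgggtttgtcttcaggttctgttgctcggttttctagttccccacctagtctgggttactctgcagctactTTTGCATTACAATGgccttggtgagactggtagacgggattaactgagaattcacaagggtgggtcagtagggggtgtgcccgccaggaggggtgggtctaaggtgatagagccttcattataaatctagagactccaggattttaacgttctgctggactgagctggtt
DPPA4: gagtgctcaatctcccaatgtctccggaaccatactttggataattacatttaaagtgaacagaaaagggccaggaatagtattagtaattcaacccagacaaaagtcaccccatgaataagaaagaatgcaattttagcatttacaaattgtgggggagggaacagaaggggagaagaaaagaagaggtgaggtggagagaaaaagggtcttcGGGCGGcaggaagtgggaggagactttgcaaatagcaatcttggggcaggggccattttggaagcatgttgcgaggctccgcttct
L1TD1: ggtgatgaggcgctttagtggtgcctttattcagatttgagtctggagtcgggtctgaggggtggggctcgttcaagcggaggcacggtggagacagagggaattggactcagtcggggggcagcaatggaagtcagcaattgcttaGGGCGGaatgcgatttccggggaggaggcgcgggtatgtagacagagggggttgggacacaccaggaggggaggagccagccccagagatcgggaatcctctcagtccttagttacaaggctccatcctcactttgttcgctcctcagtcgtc
The capitals in NANOG, 120 to 107 bases before its start, match CATTGT, any 1 base and ATGCAAA in a row, read on the minus strand. Only 3 of 35116 promoter windows (0.00854%) hold that joint motif on either strand, and NANOG was the member among them. The octamer ATGCAAAT, found in 1.77% of all windows on either strand, was in 0 of the 8 genes. The GC box GGGCGG, present in 45% of windows on either strand, was in 5 of the 8. UTF1 had a window of 71.7% G and C with 39 CpG, against a median of 58.7% and 14 over all windows, and DPPA4 one of 45.3% with 5 CpG. These matches describe letters in a window and not binding.

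**Figure D1:**
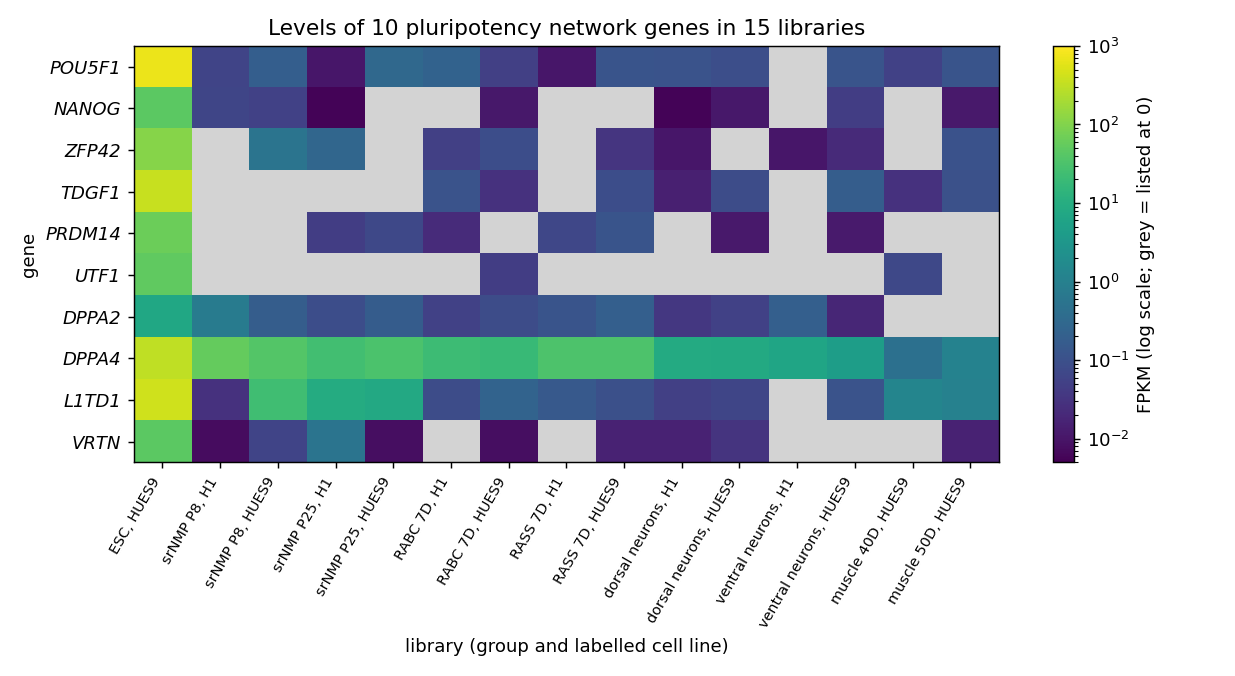
Heat map of the level of each gene (rows) in each of the 15 libraries (columns), in FPKM on a logarithmic colour scale, with grey for values listed at 0. The ESC column is high throughout, and only DPPA4 stays coloured at 4.50 FPKM or more in every srNMP, progenitor and neuron library, with L1TD1 in 3 of 4 srNMP libraries.

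Outside the ESC library the network was nearly silent. All 10 genes were at 7.28 FPKM or more in ESCs, where POU5F1 was the 73rd most abundant gene. In the other 14 libraries 8 of the 10 stayed under 1 FPKM throughout, and 45 of 140 values were listed at 0. Of 7177 genes with at least 5 FPKM in the ESC library, 74 (1.03%) stayed under 1 FPKM in all 14. Values of 1 FPKM or more were seen 18 times, in DPPA4 and L1TD1 alone. Whether fewer cells or less RNA per cell lay behind a low value cannot be told apart in bulk RNA.

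The srNMPs were compared with ESCs to see what of pluripotency they retained. limma called all 10 genes lower in srNMPs (median log2 change -5.60), where it called 7.93% of the 14129 genes tested lower and all genes had a median change of 0.07. Of the 10, 8 passed the filter of 1 FPKM only through the ESC library, so their difference was built into the test, and the count is no support for it. The ESC library has no replicate, so it adds nothing to the estimate of spread behind the standard errors. The standard errors of its comparisons rest on the spread between libraries of other groups. The day 40 and day 50 muscle groups, of 1 library each, likewise add nothing to that estimate. Averaged over progenitors, neurons and muscle, all 10 were again called lower than in ESCs (median -5.81), beside 17.4% of all genes. Both comparisons share that ESC library, and those of progenitors, neurons and muscle with srNMPs share the srNMP libraries.

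POU5F1 fell from 691 FPKM in ESCs to traces. At passage 8 it was at 0.0605 in H1 and 0.189 in HUES9, and at passage 25 at 0.0105 and 0.314. RABC progenitors had 0.236 (H1) and 0.0509 (HUES9) and RASS progenitors 0.0103 and 0.119. The mean of the traces fell from srNMPs to neurons by less than the SD in srNMPs. It was 0.144 ± 0.136 FPKM in srNMPs, 0.104 ± 0.0986 in progenitors and 0.0823 ± 0.0561 in neurons (SD, n = 4 each). Dorsal neurons had 0.116 and 0.0936, ventral neurons 0 and 0.1198, and muscle 0.0523 at day 40 and 0.119 at day 50. The srNMP, progenitor and neuron libraries overlapped, and both muscle values lay within the srNMP range. The change from ESCs to srNMPs was -9.20 ± 0.18 (limma adjusted p = 1.21e-07). POU5F1 passed the filter only through the ESC library, so this call was built into the test and is no support. None of the later steps was called for this gene (limma adjusted p from 0.532 to 1). With 1 FPKM added before the log2, differences between such traces nearly vanish, so these tests cannot decide whether the traces differed.

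These traces can be read as fragments. FPKM are steps of 1 fragment when low, and the lowest values of POU5F1, scaled to relative depth, were whole multiples of 0.0105 FPKM, within 0.1 of a fragment, in all 6 values up to 10 fragments. By that measure POU5F1 had 0 to 30 fragments in the 14 libraries, with a median of 10. The division of reads between POU5F1 and its near-identical copy POU5F1B is not given in the sources used here. NANOG had 0 to 12 (median 1), TDGF1 0 to 12 (median 1.5), PRDM14 0 to 10 (median 0.5) and UTF1 0 to 3 (median 0). The library of H1 ventral neurons listed 7 of the 10 genes at 0, the most of any library.

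Relative to the ESC level, the median over the 14 libraries was 0.0151% for POU5F1, 0.0119% for NANOG, 0.0146% for ZFP42, 0.0168% for VRTN, 0.00905% for PRDM14, 0.00586% for TDGF1 and 0% for UTF1. Muscle genes in cells other than muscle were set beside them. For the 8 of 9 that had 63.0 FPKM or more in muscle, the median level elsewhere was 0.0124% (MYOD1, a myogenic factor) to 0.0795% (ACTA1, a skeletal actin gene) of the higher muscle value. Single libraries reached more, up to 2.23% for CKM (6.61 FPKM) and 1.34% for DES (11.3 FPKM), so these genes were not silent everywhere. MYF5 had at most 0.777 FPKM in muscle and was listed at 0 elsewhere. The medians of the 7 pluripotency genes lay within or below the range of those 8. What part of these traces was expression was not tested. The median over all 7177 genes with at least 5 FPKM in ESCs was 86.7%. DPPA4 (6.33%) had the highest median of the network. DPPA2 came next (1.20%), but as a percent of the lowest ESC level of the 10 (7.28 FPKM). By the fragment estimate its median was 5 fragments, against 10 for POU5F1. L1TD1 had a low median (0.0320%) with a maximum of 5.78%.

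**Figure D2:**
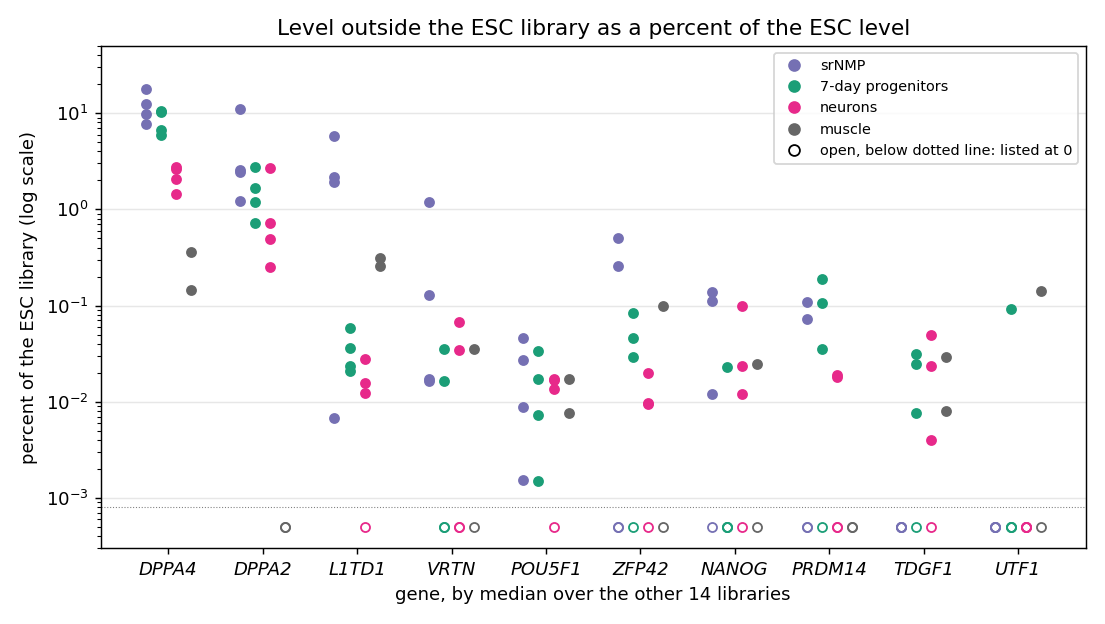
Level of each gene in the 14 libraries outside ESCs as a percent of its ESC level (y axis, logarithmic), with 1 point per library coloured by state and open points for values listed at 0. DPPA4 lies between 1.43% and 17.8% in all srNMP, progenitor and neuron libraries, while POU5F1 does not exceed 0.0455%.

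Among the other core and network factors, NANOG stood at 47.0 FPKM in ESCs. Its highest values elsewhere were 0.0643 (H1) and 0.0530 (HUES9) at passage 8, and at passage 25 it was at 0.00560 and 0. The difference between passages was -0.08 ± 0.08 (limma adjusted p = 1). By the fragment estimate NANOG had 12 (H1) and 10 (HUES9) fragments at passage 8 and 1 and 0 at passage 25. Adding 1 FPKM before the log2 leaves almost no difference at such levels, so this test cannot decide whether NANOG fell. PRDM14 had 63.7 FPKM in ESCs and was listed at 0 in both passage 8 libraries and both muscle libraries. Its highest values were 0.119 in the RASS library labelled HUES9 and 0.0697 in HUES9 at passage 25. RASS minus RABC was 0.11 ± 0.08 (limma adjusted p = 0.877), a test with the same limit. UTF1 had 50.01 FPKM in ESCs and was listed at 0 in 12 of 14 other libraries, the exceptions being HUES9 RABC at 0.0462 and day 40 muscle at 0.0712.

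ZFP42 had higher traces in 2 srNMP libraries and VRTN in 1. ZFP42 had 111 FPKM in ESCs. In srNMPs it was at 0 (H1) and 0.558 (HUES9) at passage 8 and at 0.284 (H1) and 0 (HUES9) at passage 25. The high library was thus a different line at each passage. VRTN had 46.4 FPKM in ESCs and reached 0.557 in the passage 25 H1 library, with 0.00762 to 0.0603 in the other 3 srNMP libraries and at most 0.0315 in all progenitor, neuron and muscle libraries. By the fragment estimate the highest values were 56 fragments for ZFP42 and 70 for VRTN. Neither was called between passages (limma adjusted p = 1 for both), where the 1 FPKM added before the log2 shrinks differences between values this low.

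TDGF1, the NODAL co-receptor, was at 362 FPKM in ESCs and listed at 0 in all 4 srNMP libraries. In the later states it was listed above 0 in 8 of 10 libraries, at 0.0145 to 0.180 FPKM, the highest in HUES9 ventral neurons. No fold is given against a group at 0. limma did not call it in neurons against srNMPs (0.09 ± 0.08, adjusted p = 0.353) or muscle against srNMPs (0.06 ± 0.10, adjusted p = 0.652). Since 1 FPKM is added before the log2, levels this low leave almost no difference to call, so these tests cannot decide whether TDGF1 rose.

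DPPA4 was the member that outlived the rest of the network. It had 314 FPKM in ESCs. At passage 8 it was at 55.9 (H1) and 38.9 (HUES9), and at passage 25 at 24.4 and 30.9. RABC progenitors had 21.1 and 18.7 and RASS progenitors 32.9 and 32.3. It ranked between 946th and 3175th of all genes in these 8 libraries. Dorsal neurons had 8.67 (H1) and 8.21 (HUES9), ventral neurons 6.49 and 4.50, and muscle 0.456 at day 40 and 1.13 at day 50. All 4 neuron libraries were below all 8 srNMP and progenitor libraries, and both muscle libraries were below all neurons.

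The fall of DPPA4 came in steps. From ESCs to srNMPs it fell by 3.17 ± 0.25 on the log2 scale (limma adjusted p = 0.000238). srNMPs averaged 37.5 ± 13.6 FPKM (SD, n = 4) and progenitors 26.3 ± 7.43 (SD, n = 4), a difference of -0.47 ± 0.15 that was not called (limma adjusted p = 0.126). Neurons averaged 6.97 ± 1.89 FPKM (SD, n = 4), lower than srNMPs by a log2 change of -2.24 ± 0.15 (limma adjusted p = 0.000139). Neurons were also lower than progenitors (-1.77 ± 0.15, limma adjusted p = 0.000582), a comparison added after the values were seen, in which DPPA4 was the 1 gene of 10 called, beside 16.5% of all genes called lower. Muscle was lower than srNMPs by a log2 change of -4.31 ± 0.20 (limma adjusted p = 3.96e-06), where the standard error holds no spread between muscle cultures. Each of these calls of DPPA4 held under every alternative run.

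Within states, the differences of DPPA4 between groups, each of 2 libraries against 2, were not called. Ordered by their means, the groups were ESC, passage 8 (47.4 ± 12.1 FPKM, SD, n = 2), RASS (32.6 ± 0.427), passage 25 (27.6 ± 4.64), RABC (19.9 ± 1.69), dorsal neurons (8.44 ± 0.327), ventral neurons (5.50 ± 1.41), and the muscle libraries. RASS exceeded RABC by 0.69 ± 0.22 (limma adjusted p = 0.365). Ventral and dorsal neurons differed by -0.56 ± 0.22 (adjusted p = 0.262) and passage 25 and passage 8 by -0.74 ± 0.22 (adjusted p = 1), both by limma. Passage 25 was lower than passage 8 in each line, by -1.17 in H1 and -0.32 in HUES9. The HUES9 minus H1 term was -0.15 ± 0.12 (limma adjusted p = 0.883), and -0.14 with the RASS lines exchanged.

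**Figure D3:**
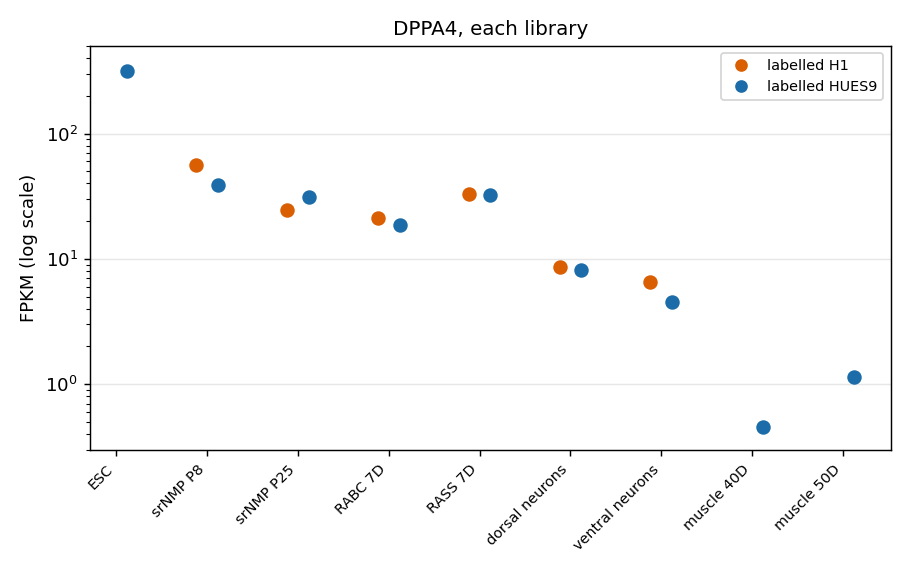
DPPA4 in each library (points coloured by labelled cell line) by group along the x axis, in FPKM on a logarithmic y axis. The level steps down from 314 in ESCs to between 18.7 and 55.9 in srNMPs and progenitors, 4.50 to 8.67 in neurons and at most 1.13 in muscle.

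DPPA2, the partner of DPPA4 and its direct neighbour among the protein-coding genes of the RefSeq annotation, was the weakest of the 10 in ESCs (7.28 FPKM) and stayed under 1 FPKM in all other libraries. Its means were in the same order as those of DPPA4, with 0.313 ± 0.328 FPKM in srNMPs, 0.115 ± 0.0638 in progenitors and 0.0760 ± 0.0821 in neurons (SD, n = 4 each). The means of POU5F1, ZFP42 and L1TD1 had that order too, so it was not particular to the pair. No test compared the courses of the pair. In srNMPs it was at 0.801 (H1) and 0.185 (HUES9) at passage 8 and 0.0890 and 0.177 at passage 25. Progenitors had 0.0520 to 0.201 and neurons 0.0184 to 0.197, and both muscle libraries listed it at 0. Its highest value outside ESCs, like those of DPPA4 and NANOG, was in the H1 passage 8 library. By the fragment estimate that value was 47 fragments, against 0 to 11 in 13 libraries. The fall from ESCs to srNMPs was -2.73 ± 0.21 (limma adjusted p = 0.000211). DPPA2 passed the filter only through the ESC library, so that call was built into the test and is no support. No later comparison was called by limma, with -0.26 ± 0.13 for neurons against srNMPs (adjusted p = 0.127) and -0.32 ± 0.17 for muscle against srNMPs (adjusted p = 0.155). The muscle difference was called with a pseudocount of 0.1 FPKM (-1.64, adjusted p = 0.0417) and without the HUES9 passage 8 library (-0.52, adjusted p = 0.0133). The neuron difference was called without that library (-0.41, adjusted p = 0.0126) and with quantile normalization (-0.41, adjusted p = 0.0279).

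L1TD1 was above 7 FPKM in 3 of 4 srNMP libraries and near 1 FPKM in muscle. From 414 FPKM in ESCs it stood at 0.0282 in H1 and 23.9 in HUES9 at passage 8, and at 8.92 and 7.95 at passage 25. The H1 passage 8 library was thus at the level of neurons while the other 3 srNMP libraries were at 1.92% to 5.78% of ESCs. Progenitors had 0.0860 (H1) and 0.242 (HUES9) with RABC and 0.151 and 0.0981 with RASS. Dorsal neurons had 0.0515 and 0.0655, ventral neurons 0 and 0.114. Muscle was higher than any progenitor or neuron library, at 1.29 FPKM on day 40 and 1.08 on day 50.

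The calls of L1TD1 depended on single libraries. From ESCs to srNMPs the change was -5.51 ± 1.29 (limma adjusted p = 0.0292), a call that ended with a pseudocount of 0.1 (adjusted p = 0.0818) and without HUES9 passage 25 (-5.14, adjusted p = 0.0829). It ended also without any RABC or neuron library, where the change was -5.45 to -5.44 (adjusted p from 0.0515 to 0.0545). Without the H1 passage 8 library it was -4.75 (adjusted p = 4.32e-05). Neurons were lower than srNMPs by a log2 change of -2.71 ± 0.79 (limma adjusted p = 0.0245), and with DPPA4 this made 2 of the 10 genes called lower, beside 23.2% of all genes. That call ended without the H1 passage 25 library (-2.43, adjusted p = 0.0870) and without any of the 4 neuron libraries (-2.94 to -2.48, adjusted p from 0.0519 to 0.0811). It was -3.85 without H1 passage 8 (adjusted p = 0.000196) and -2.99 without HUES9 passage 25 (adjusted p = 0.0429). Progenitors against srNMPs gave -2.60 ± 0.79 (limma adjusted p = 0.113), and 0 of 10 genes were called there (2 at an unadjusted p under 0.05, DPPA4 and L1TD1), beside 3.43% of all genes. Without the H1 passage 8 library this change of L1TD1 was -3.74 (adjusted p = 0.00028), and without the HUES9 passage 8 library it was -1.45 (adjusted p = 0.0140). Muscle against srNMPs gave -2.06 ± 1.02 (limma adjusted p = 0.134), so that DPPA4 was the 1 gene of 10 called there, beside 31.6% of all genes called lower. L1TD1 was called in muscle without the H1 passage 8 library (-2.82, adjusted p = 5.17e-05) or without the HUES9 one (-0.54, adjusted p = 0.0305).

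Between passages L1TD1 differed in opposite directions in the lines, by 3.27 in H1 and -1.48 in HUES9 on the log2 scale (passage 25 minus passage 8), each from 1 library against 1. The H1 value rests on the passage 8 library that also lacked CDX2, CDX4 and NKX1-2, so passage and that library cannot be told apart. The passage difference over both lines was 0.90 ± 1.11 (limma adjusted p = 1). limma called 0 of 10 genes and 0.0% of all genes between passages, with 255 genes and 1 member, DPPA4, at an unadjusted p under 0.05. Between the inductions 0 of 10 were called beside 0.517% of all genes, and between ventral and dorsal neurons 0 of 10 beside 2.04%, with DPPA4 again the 1 member at an unadjusted p under 0.05 in each. The cell line term called 0 of 10 and 0.0% of all genes (512 genes and 0 members at an unadjusted p under 0.05). With the RASS lines exchanged it called 147 genes and 0 members.

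The genes most like L1TD1 over the 14 libraries outside ESCs were PLAC1, a gene best known from placenta, URAD, a gene of urate breakdown, and CDX2, a homeobox factor of the trunk and tail bud (Pearson's r = 0.975, 0.966 and 0.962 of log2 levels, chosen from 13402 genes). These correlations rest on the 4 srNMP libraries. CDX2 had 0.00615 (H1) and 39.0 (HUES9) FPKM at passage 8 and 11.5 and 21.8 at passage 25, and at most 0.224 elsewhere. URAD, the protein-coding neighbour of CDX2 in the RefSeq annotation, had 0.0287 and 87.1 at passage 8 and 14.4 and 24.1 at passage 25, and at most 0.264 elsewhere. PLAC1 had 0.400 and 7.53, then 4.59 and 4.90, and 0.667 and 1.61 in muscle. In the ESC library, where L1TD1 was highest, CDX2 and URAD were listed at 0 and PLAC1 stood at 0.151. The likeness therefore does not extend to ESCs.

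**Figure D4:**
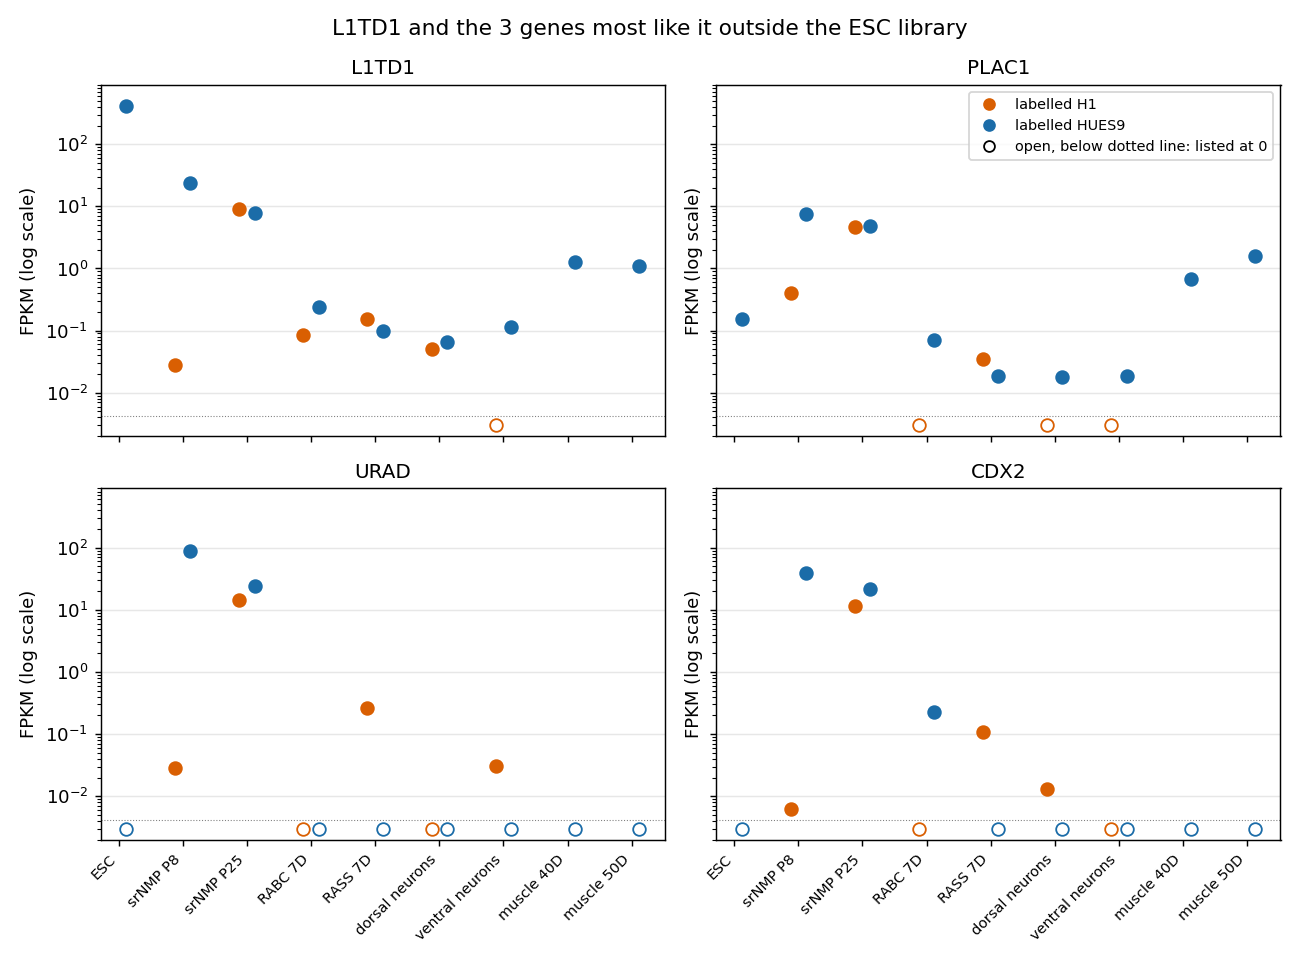
L1TD1, PLAC1, URAD and CDX2 (1 panel each) by group along the x axis, in FPKM on a shared logarithmic y axis, with points coloured by labelled cell line and open points for values listed at 0. In all 4 genes the H1 passage 8 library lies below the other 3 srNMP libraries, and only L1TD1 is high in ESCs.

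The genes most like DPPA4 over the same libraries were IWS1, a transcription elongation factor, HNRNPC, an RNA-binding protein of the spliceosome, and UBE2S, a mitotic ubiquitin-conjugating enzyme (Pearson's r = 0.969, 0.967 and 0.967). Their range was narrower than that of DPPA4. UBE2S had 37.2 to 41.6 FPKM in srNMPs, 26.4 to 39.8 in progenitors, 14.2 to 29.5 in neurons and 8.48 to 8.75 in muscle. In ESCs UBE2S stood at 43.2 and IWS1 at 30.9 FPKM, near their srNMP levels. HNRNPC had 374 FPKM in ESCs, above its 269 to 346 in srNMPs. DPPA4 was far higher in ESCs than in srNMPs.

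Other genes of pluripotent cells left the ESC state at different steps. Of 17 further primed pluripotency genes tested, 12 were called lower in srNMPs than in ESCs and 0 higher (median -2.03), beside 7.93% and 8.73% of all genes. For 2 of the 12, ZSCAN10 and OTX2, the filter was passed only through the ESC library, which fixed their direction. Some fell to traces like POU5F1. ZSCAN10, a zinc finger factor, went from 92.9 to at most 0.00965 FPKM in srNMPs, OTX2, a factor of the epiblast and forebrain, from 5.43 to at most 0.0267, and CDH1, the gene of E-cadherin, from 86.5 to at most 0.0628. FOXD3, a forkhead factor (13.2 in ESCs, 0.0217 to 2.49 in srNMPs), and EPCAM, an epithelial adhesion gene (134 and 0.269 to 2.08), were also called lower. Others stayed well expressed like DPPA4. The DNA methyltransferase gene DNMT3B had 549 FPKM in ESCs and 26.1 to 53.6 in srNMPs, PODXL, a cell surface sialomucin, 325 and 16.2 to 29.2, TERF1, a telomere protein gene, 244 and 16.4 to 22.7, and CD24, a surface antigen, 622 and 190 to 246. TRIM71, a heterochronic RNA-binding ubiquitin ligase gene, was called with a smaller change (64.7 and 20.9 to 27.5 FPKM, -1.28 ± 0.33, limma adjusted p = 0.0417).

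The genes not called between srNMPs and ESCs included SOX2, LIN28A, LIN28B, SALL4 and SFRP2. SOX2, the binding partner of POU5F1 and also a neural factor, had 113 FPKM in ESCs, 147 to 213 in srNMPs, 135 to 258 in progenitors, 133 to 185 in neurons and 2.09 to 4.44 in muscle. LIN28A, which blocks let-7 microRNA maturation, had 477 FPKM in ESCs and 235 to 337 in srNMPs, then 15.7 to 101 in progenitors and at most 0.976 in neurons and 0.115 in muscle. LIN28B went from 27.4 to 37.7 in srNMPs to 1.53 to 3.40 in neurons, and SALL4, a zinc finger partner of the core network, from 16.3 to 22.9 to 0.370 to 3.64. Both were called lower in neurons than in srNMPs, as was LIN28A (limma adjusted p = 0.000208 for LIN28A, 0.000215 for LIN28B and 0.00039 for SALL4). SFRP2, a secreted WNT modulator, was at 330 FPKM in ESCs, 58.3 to 154 in srNMPs, 6.30 to 24.3 in neurons and 273 to 457 in muscle. Of the 17, 6 were called lower and 1 higher in neurons than in srNMPs, and 9 lower and 2 higher in muscle. Of all genes 23.2% were called lower and 28.8% higher in neurons, and 31.6% and 18.2% in muscle. The higher ones were EPCAM in neurons (1.46 to 8.61 FPKM) and CDH1 (0.779 to 2.08) and SFRP2 in muscle. Between progenitors and srNMPs 0 of 17 were called by limma, beside 3.43% of all genes. At an unadjusted p under 0.05 there were 2, beside 3379 of the 14129 genes tested. These were LIN28A (-2.75 ± 0.61, limma adjusted p = 0.0581) and DNMT3B (-0.50 ± 0.13, limma adjusted p = 0.0859), both lower in progenitors.

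The NODAL axis, through which TDGF1 acts, was split between ligands and receptors. Of 10 genes tested, 5 were called lower and 1 higher in srNMPs than in ESCs, beside 7.93% and 8.73% of all genes, and 4 of the 5 (all but GDF3) passed the filter only through the ESC library, so that their call was built in. The ligand genes NODAL (26.7 FPKM in ESCs, 0 in all 4 srNMP libraries) and GDF3 (32.9, at most 0.0235), the feedback inhibitor genes LEFTY1 (18.9, at most 0.118) and LEFTY2 (12.7, at most 0.0960) and FOXH1, a nuclear partner of SMADs (44.4, at most 0.0573), were the 5. The signal transducer gene SMAD3 was higher in srNMPs (25.3 to 30.7 against 6.79 FPKM). The activin receptor genes stayed expressed: ACVR2A had 2.12 FPKM in ESCs and 1.93 to 4.19 in srNMPs, ACVR2B 7.05 and 6.16 to 10.3, and ACVR1B 8.80 and 7.81 to 11.6. All 3 were called higher in neurons than in srNMPs (log2 changes 2.27 ± 0.25, 0.75 ± 0.18 and 1.32 ± 0.14 by limma), with SMAD3 the 1 gene of the axis called lower (-0.65 ± 0.16). In that comparison 28.8% of all genes were called higher and 23.2% lower, so 3 of 10 higher was near the share of all genes.

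Genes of naive pluripotency and of germ cells, which share factors with this network, were mostly low. Of 7 naive genes tested 4 were called lower in srNMPs than in ESCs (median -1.40), beside 7.93% of all genes. Of these, DPPA3 and DPPA5 were listed at 0 in all other libraries and were tested only through the ESC library. NR5A2, an orphan nuclear receptor, was the one of at least 5 FPKM in ESCs (6.75, at most 0.266 in srNMPs). KLF4 and KLF5, factors that also act in smooth muscle and epithelia, were called higher in muscle than in srNMPs, at 12.7 to 13.3 and 22.8 to 27.1 FPKM. SUSD2, a surface protein of naive cells, was called higher in progenitors than in srNMPs (1.58 ± 0.25, limma adjusted p = 0.0298), with 11.6 and 3.56 FPKM in the RABC libraries against 0.662 or less in the RASS libraries and 0.329 or less in srNMPs. Of 4 germ cell genes tested 2 were called lower in srNMPs, TFAP2C (12.4 in ESCs, at most 0.250), which also passed the filter only through the ESC library, and SOX15 (9.43, at most 0.104). KIT, a receptor kinase of many tissues, had 7.28 FPKM in ESCs and 10.1 to 18.8 in srNMPs, and NANOS3, an RNA-binding protein gene of germ cells, reached 1.84 to 5.45 in neurons. Near-identical copies limit the traces of the core factors. POU5F1B had 20.2 FPKM in ESCs and 0.0204 to 0.928 elsewhere. Outside ESCs it was above POU5F1 in all libraries but H1 passage 8, HUES9 passage 25 and H1 RABC. In day 50 muscle it had 0.928 against 0.119 for POU5F1. NANOGP8 had 26.9 in ESCs and at most 0.0458 elsewhere. How the counting divided reads between each copy and its parent is not given in the sources used here.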

How the data were processed

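The tools named in the submitters' processing notes are Trimmomatic, HISAT2, HTSeq and Cufflinks, and the build is hg18; versions, settings, roles and gene lengths are not given in the sources used here. Per the labels' protocols, the kit was TruSeq Stranded mRNA and the sequencer a NovaSeq. The deposited table lists FPKM made by the authors, 1 column per sample, and values were taken as listed; 1 further column of values, headed with a cell line name alone, fits no sample's labels and stayed out. Counts are not part of these values, so relative depth was estimated from the commonest ratio of values up to 0.1 FPKM between libraries, and no counting interval was computed. The value of 1 fragment of a gene was the step of which its lowest values are whole multiples; DPPA4 has too few low values for it.

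The filter kept the 14129 genes that reached 1 FPKM in any library. limma 3.58.1 in R 4.3.3 was fitted on log2(FPKM + 1) over all 15 libraries, with 1 mean per group, a cell line term and a variance trend (5 residual and 2.16 prior degrees of freedom), two-sided, with Benjamini-Hochberg adjustment over all genes of a comparison and calls at an adjusted p under 0.05. The cell line is the replicate block because each group of 2 libraries holds 1 of each labelled line. The fit was tested on simulated data. The alternatives were no line term, a pseudocount of 0.1, no filter, a filter of 1 FPKM in at least 2 libraries, equal totals, quantile normalization and leaving out each library of a group of 2. Exchanging the lines of the RASS libraries, leaving both out and comparing neurons with progenitors were chosen after seeing the data. The members and lists were chosen with earlier results of these data known. The rule for named genes took every member, every list gene of at least 5 FPKM in any library, and the 3 genes of highest correlation with each member at 1 FPKM or more in at least 2 libraries outside ESCs. Promoter sequences are from RefSeq (GRCh38.p14), another build than that of the values, and were matched by gene identifier. A list gene that meets the rule for named genes is not reported here.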

Additional observations from a re-analysis of the deposited data

Results flagged for a closer look

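L1TD1 differed in opposite directions between passages in the 2 lines: its log2(FPKM + 1) change from passage 8 to passage 25 was 3.27 in H1 and -1.48 in HUES9, a difference of -4.75 (HUES9 minus H1). Each value compares 1 library with 1 library, and the difference was not tested. CDX2, CDX4 and NKX1-2 were at or near 0 in the same H1 passage 8 library, and their part in the result was not tested. No state of 4 libraries held a value of DPPA4 or L1TD1 far enough from the other 3 to be set apart by Dixon's test on FPKM. The largest gap was 0.628 of the range, for L1TD1 in srNMPs. It lay between HUES9 at passage 8 (23.9 FPKM) and H1 at passage 25 (8.92), and so was not that of H1 at passage 8.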

How the results depend on the processing

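The direction of each of the 10 genes against ESCs was kept under all alternatives that tested it. With a filter of 1 FPKM in at least 2 libraries only DPPA4 and L1TD1 were tested, so 2 genes were called in srNMPs and 2 in the derivatives. The replicate block (the cell line term) changed no call of a member, but without the replicate block 772 genes in place of 484 were called between progenitors and srNMPs. That count was 191 without the filter, 875 with the RASS lines exchanged and 25 without both RASS libraries. RASS minus RABC had 73 calls, 48 without the filter and 113 with the lines exchanged. The cell line term had 0 calls, 147 with the lines exchanged and 65 without both RASS libraries. In muscle 2 members were called with the pseudocount of 0.1, DPPA2 in addition, and the same gene was added in neurons with quantile normalization. Equal totals changed the share of called genes that were higher from 54.2% to 66.8% (derivatives against ESCs), from 55.4% to 72.1% (neurons against srNMPs), from 36.5% to 49.4% (muscle against srNMPs), from 56.4% to 66.4% (neurons against progenitors) and from 50.6% to 62.0% (progenitors against srNMPs). With quantile normalization it was 44.8% for neurons against srNMPs, 46.3% for neurons against progenitors and 56.6% in place of 71.9% for ventral against dorsal neurons. Equal totals moved the median change of all genes by over 0.1, to 0.31 (derivatives), 0.29 and 0.14 (neurons against srNMPs and progenitors), -0.01 (muscle) and 0.15 (progenitors). Quantile normalization moved it to 0.01 (derivatives) and -0.06 (neurons against srNMPs).

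Leaving out 1 library gave 1504 to 2705 called genes for srNMPs against ESCs (the lowest without HUES9 passage 25) and 9 to 10 members. For progenitors against srNMPs it gave 45 to 2277 genes (45 without H1 RABC, 2277 without H1 passage 8, and moved by over 1.5 times by each library other than HUES9 passage 25 and HUES9 RABC) and 0 to 1 members. It gave 1 to 3 members for neurons and 1 to 3 for muscle against srNMPs, 0 to 5 genes and 0 to 1 members between passages, 8 to 73 genes for RASS against RABC (8 without H1 RABC), 137 to 398 for ventral against dorsal neurons (137 without HUES9 dorsal neurons), 0 to 66 for the cell line term (66 without the RASS library labelled H1) and 3290 to 5993 for neurons against progenitors (3290 without H1 dorsal neurons). L1TD1, not called in these comparisons, changed sign when 1 library was left out: between passages (-1.39 to 3.18; called at 3.18 without HUES9 passage 8), RASS against RABC (-0.56 to 0.47), ventral against dorsal neurons (-0.47 to 0.46) and neurons against progenitors (-0.37 to 0.15). ZFP42 and VRTN were called in neurons in 1 such fit each, and VRTN in muscle in 1. No value of unreplicated ESC or muscle cultures can be given an error, and FPKM near 0 rest on a few fragments.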

Other observations

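Of the 7177 genes with at least 5 FPKM in the ESC library, 39 stayed under 1% of the ESC level in all 14 other libraries, and 6 of them were members (POU5F1, TDGF1, ZFP42, PRDM14, UTF1 and NANOG). The others were named after their values were seen. Ordered by ESC level, those above 50 FPKM were CLDN6 (467 FPKM, at most 0.706% of it elsewhere), EPHA1 (101, 0.169%), ZSCAN10 (92.9, 0.1202%), B3GNT7 (86.2, 0.606%), CYP2S1 (85.8, 0.181%), CLDN7 (60.4, 0.0597%), ESRP1 (58.9, 0.620%) and SPINT1 (51.5, 0.302%). CLDN6 and CLDN7 encode tight junction proteins, EPHA1 an ephrin receptor, ZSCAN10 a zinc finger factor, B3GNT7 a glycosyltransferase, CYP2S1 a cytochrome P450, ESRP1 a splicing regulator and SPINT1 a protease inhibitor.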
